A study of Mus musculus with 24 samples.

Results

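Wild-type (WT) mouse embryonic fibroblasts (MEFs), which are grown in culture from connective tissue of embryos, were treated with torin1, a small molecule that blocks the catalytic site of the kinase MTOR, or with the vehicle DMSO. The libraries described were chosen by their labels for genotype and treatment and are 8 of the 24 in the series, with 4 torin1 and 4 DMSO libraries. In each of these groups, 1 library came from each of the passages 12, 13, 14 and 15. The rest of the series holds WT cells given an activator of AMP-activated protein kinase (AMPK) and the same 3 treatments in MEFs labelled as AMPK knockout (AMPK KO), of which the torin1 and DMSO libraries (4 each, passages 16 to 19) were used here for comparison. WT and AMPK KO cells shared no passage, so genotype and passage range cannot be told apart. MEFs of both genotypes came from another laboratory, AMPK KO meaning loss of both catalytic subunit genes by the study's account, and the labels give neither the dose of torin1 nor the length of the treatment.

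MTOR works in 2 complexes. MTORC1, which contains RPTOR and is recruited to the lysosome surface by the Rag GTPases when amino acids are plentiful, phosphorylates the S6 kinases and the 4E-BP translation repressors, favours synthesis of the transcription factor ATF4, and keeps TFEB, TFE3 and MITF in the cytoplasm. TFEB and its relatives activate genes of lysosomes and autophagy, and ATF4 activates genes for the uptake, synthesis and tRNA charging of amino acids. MTORC2, which contains RICTOR, activates AKT, which in turn restrains the FOXO transcription factors, and torin1 blocks both complexes. The comparison of torin1 with DMSO asked which transcripts respond to this block in cells that have AMPK.

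RNA was sequenced in bulk, and the estimated count per library ranged from 27022814 to 34192685. Levels below are CPM, for which counts were scaled to a common effective library size. That size is the library's count in genes tested, multiplied by its TMM factor. These factors were 0.932 to 0.941 in the DMSO libraries and 0.988 to 1.021 in the torin1 libraries. Where 4 values are given in a row, they belong to passages 12, 13, 14 and 15 in that order. A gene was called when its adjusted p was under 0.05 and its level differed by at least 1.2-fold, and all adjusted p are from edgeR's quasi-likelihood test with Benjamini-Hochberg adjustment over all genes tested. RNA integrity numbers lay between 9.7 and 10. Levels scaled to transcript length are given as TPM, which were not adjusted by the TMM factors. Since these factors were larger in torin1, they lower CPM relative to TPM there, and TPM shares and CPM are not on 1 scale. Summed levels of 12 fibroblast markers were 6620 to 8350 TPM in DMSO and 8992 to 10623 TPM in torin1, although Lum and Dcn, common fibroblast markers, were at or near 0. Of the 10 fibroblast markers tested, 4 (Vim, Fn1, Pdgfra and Pdgfrb) were called higher and 3 (Col1a1, Col1a2 and S100a4) lower with torin1. Summed levels of epithelial markers were at most 1.65 TPM in DMSO and 3.91 TPM in torin1, those of endothelial markers at most 0.482 and 1.10 TPM, and 4 of 7 macrophage and blood markers were at 0 in every library. The first principal component of the 8 libraries held 57.0% of the variance and separated the treatments, and the second held 12.1% and had its highest values in both passage 12 libraries. The labels do not say whether passages were independent cultures, so p-values measure only the spread between these libraries. In bulk RNA, fewer cells that express a gene and less of its RNA per cell cannot be told apart.

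Torin1 changed the levels of nearly as many genes as it left without a call. Of 15828 genes tested, 4204 were called higher (26.6%) and 3336 lower (21.1%), 47.6% in either direction. Large rises outnumbered large falls, since 1223 genes were called and at least 2-fold higher and 380 at least 2-fold lower. The groups did not overlap in 3638 of the genes called higher and 3007 of those called lower. Over all 15828 genes tested they did not overlap in 8205, so many genes without a call also lacked overlap. Falls were more frequent among abundant transcripts. When the genes were divided into 5 groups of like size by mean CPM, 12.8% in the highest group were called higher and 36.3% lower, and in the next to lowest group 41.3% were called higher and 13.3% lower. Of the calls, 55.8% were higher, and 67.5% were higher when libraries were scaled by their total count alone, which raised the median log2 fold change over these genes from 0.04 to 0.14.

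**Figure D1:**
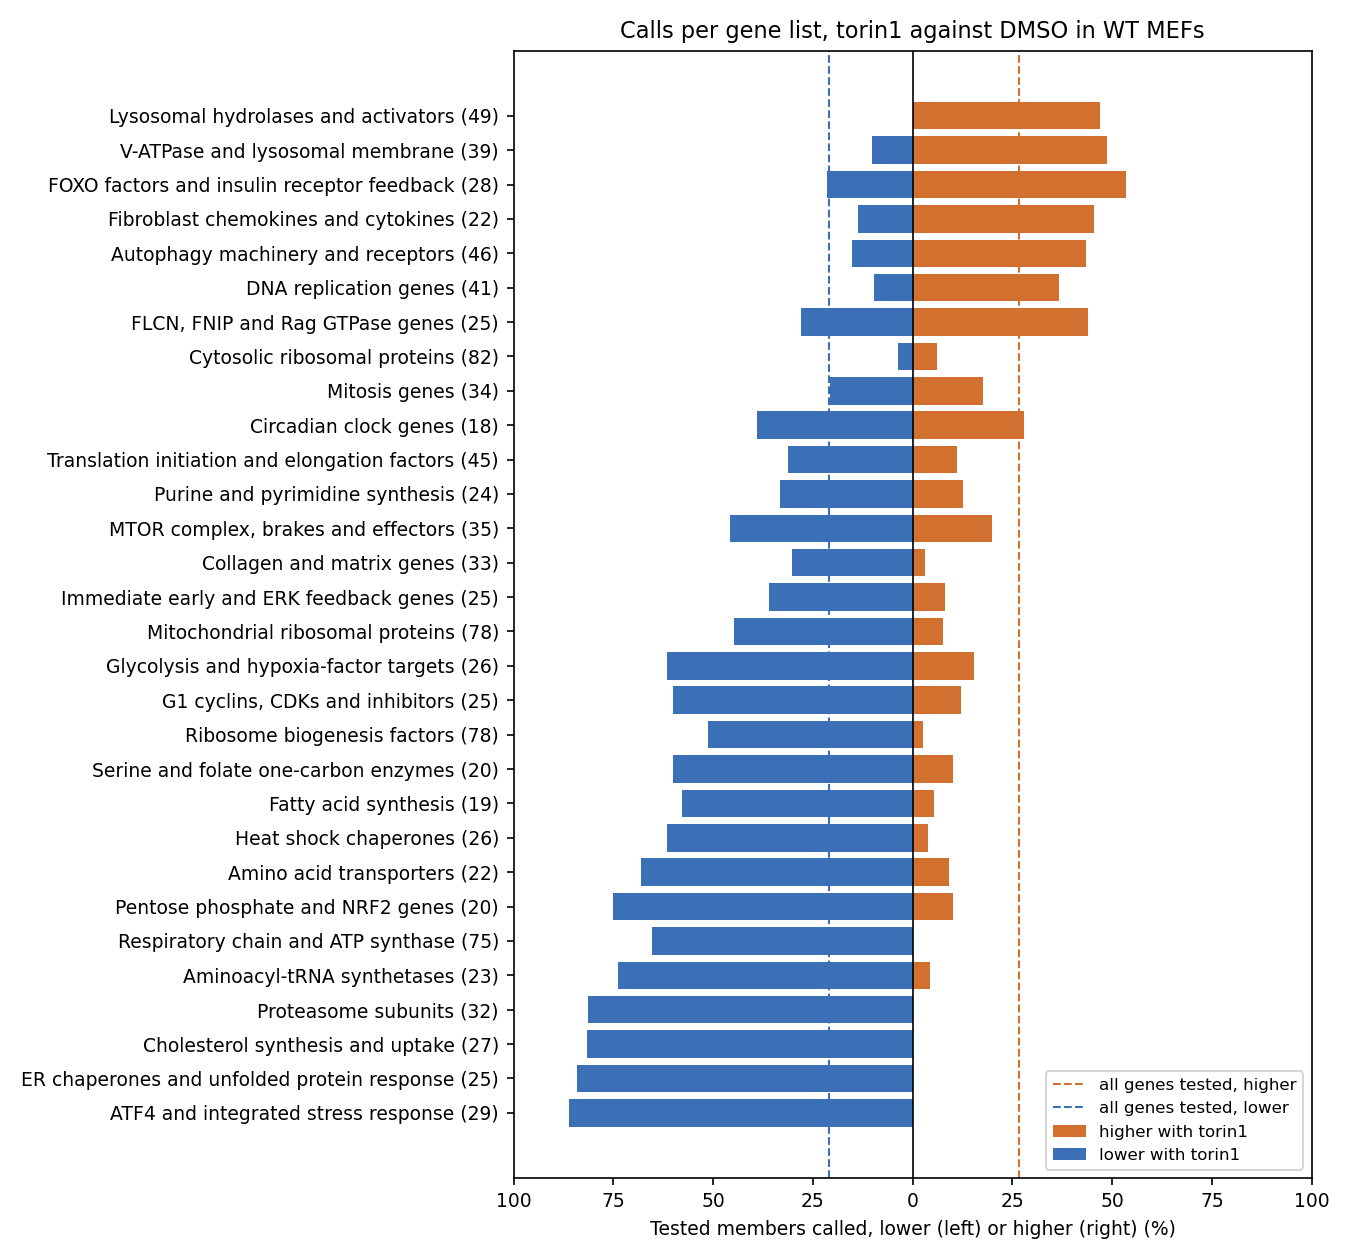
Percentage of the tested members of each gene list (number tested in parentheses) called higher (right, orange) or lower (left, blue) with torin1 in WT MEFs, with dashed lines at the 26.6% and 21.1% of all genes tested. The lysosomal lists stand at the top, and the ATF4, ER chaperone, cholesterol, proteasome and respiratory chain lists show falls alone.

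The members of each list that are named below include, besides those picked by rule, examples chosen after their values were seen. Counts of members called stand against 26.6% called higher and 21.1% called lower over all genes tested. For lists of abundant genes the shares in the highest group by mean CPM, 12.8% and 36.3%, are the closer comparison. Many genes of lysosomal enzymes rose, by small folds in the median. Of 49 hydrolases and activators tested, 23 were called higher and 0 lower, with a median log2 fold change of 0.25 against 0.04 for all genes tested. Their share of all TPM was 0.210 to 0.220% in the DMSO libraries and 0.280 to 0.288% in the torin1 libraries, without overlap. Naglu, which removes terminal sugars from heparan sulfate, stood at 17.1, 14.3, 16.1 and 13.9 CPM in DMSO and at 39.5, 33.4, 35.0 and 38.3 CPM in torin1. Every torin1 library was above every DMSO library, and the log2 fold change was 1.25 (SE 0.09, adjusted p = 3.3e-11). Still larger rises were those of the cathepsin gene Ctsf, from 1.18 ± 0.0961 to 3.79 ± 0.441 CPM (SD, n = 4 each), and of Idua, which cuts iduronic acid from glycosaminoglycans, from 3.82 ± 0.689 to 12.1 ± 0.492 CPM. Hexa and Ctsa, a subunit of beta-hexosaminidase and a carboxypeptidase, rose by log2 fold changes of 0.68 (SE 0.085) and 0.67 (SE 0.06), and Tpp1, a peptidase, by 0.86 (SE 0.068). The abundant aspartic protease Ctsd stood at 198, 212, 212 and 195 CPM in DMSO and 229, 247, 223 and 219.1 CPM in torin1. Its groups did not overlap, but its log2 fold change of 0.17 (SE 0.054, adjusted p = 0.0094) was below the fold required for a call. There were 26 members in all that were not called, among them Ctsb, Ctsl and Gusb.

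The lysosomal membrane carries channels, transporters and the V-ATPase, the proton pump that acidifies the organelle. Of 39 such genes tested, 19 were called higher and 4 lower, with a median log2 fold change of 0.20. Mcoln1 (ENSMUSG00000004567, chromosome 8, 3500457 to 3515232, GRCm38), the calcium channel TRPML1, stood at 36.0, 38.6, 35.7 and 32.3 CPM in DMSO and at 76.0, 70.7, 69.5 and 73.3 CPM in torin1. The groups did not overlap, and the log2 fold change was 1.02 (SE 0.071, adjusted p = 1.9e-11). Ctns, the cystine exporter of the lysosome, rose, with a log2 fold change of 1.27 (SE 0.13), and Gpnmb, a glycoprotein of lysosomes and melanosomes, had the largest rise among named genes with a mean of at least 10 CPM. Gpnmb (ENSMUSG00000029816, chromosome 6, 49036546 to 49070929) stood at 5.90, 4.32, 4.42 and 2.95 CPM in DMSO and at 59.5, 24.5, 43.0 and 36.2 CPM in torin1, a log2 fold change of 3.20 (SE 0.29, adjusted p = 1.1e-09). Its torin1 libraries differed among themselves, and the lowest of them was still above all DMSO libraries. A lack of overlap was a condition for the ranking by rise. The genes called lower were Atp6v0c, Atp6v0e and Atp6v0a2, all of the membrane sector of the pump, and the channel gene Tpcn1. Atp6v0c fell from 374 ± 12.1 to 249 ± 14.6 CPM and Tpcn1 from 47.0 ± 3.76 to 31.3 ± 2.41 CPM (SD, n = 4 each), whereas Atp6v1a, the catalytic subunit, stood at 69.9 ± 5.73 and 73.1 ± 4.10 CPM with overlapping groups (log2 fold change 0.07, SE 0.059, adjusted p = 0.35). Lamp1, a main glycoprotein of the lysosome membrane, had a log2 fold change of 0.20 (SE 0.047, adjusted p = 7.2e-04), below the required fold. Ctsd and Lamp1 were called when libraries were scaled by total count alone. Cln3, a lysosomal membrane protein called at 0.619 ± 0.132 and 0.925 ± 0.298 CPM with overlapping groups, lost its call without DMSO replicate 2 or 3 and without torin1 replicate 2 or 4.

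**Figure D2:**
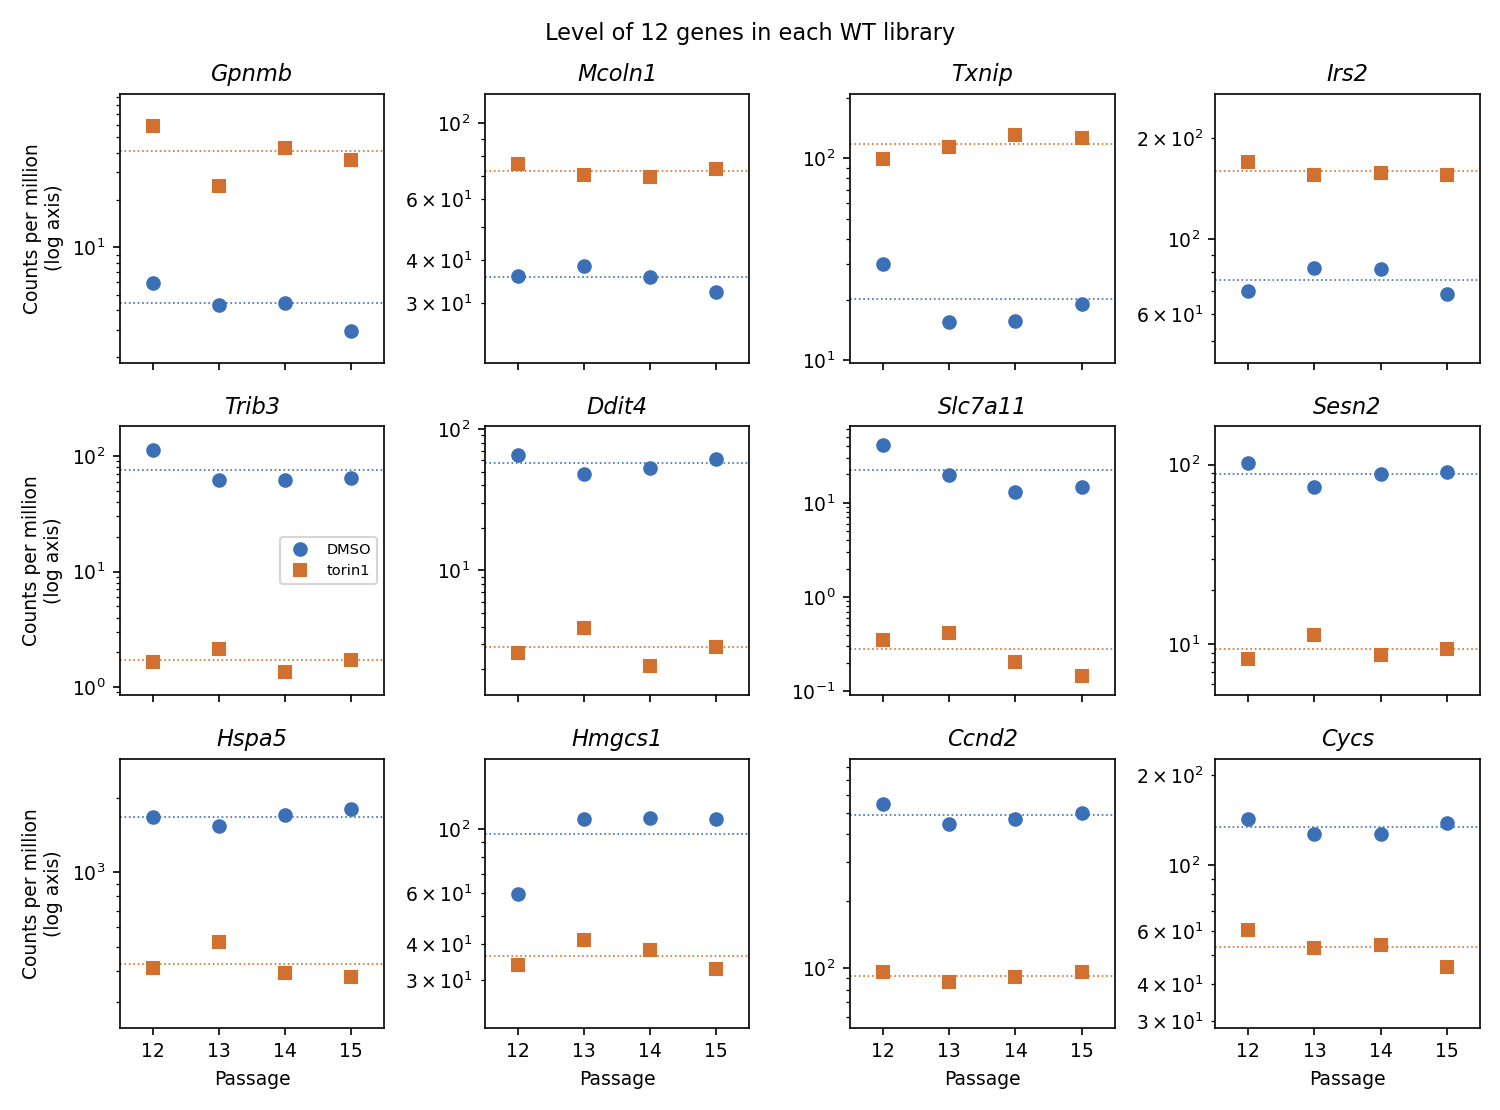
CPM of 12 genes in each of the 8 WT libraries by passage, on log axes, with DMSO as blue circles, torin1 as orange squares and dotted lines at the means of 4 libraries. In all 12 genes the libraries of the 2 treatments do not overlap, and in Trib3 the passage 12 DMSO library lies above the other DMSO libraries. For genes picked as the largest rises or falls, lack of overlap was a condition.

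TFEB binds a palindrome known as the CLEAR element, and promoters were searched for its core, TCACGTGA, which reads the same on both strands and contains the more common E-box CACGTG. Promoter windows from RefSeq on GRCm38.p6, reaching from 250 bases before to 50 bases after each start, were given for 10829 of the 15828 genes tested. The core was found in 0.974% of all 32851 promoters given and in 1.75% of 13847 promoters of genes tested, in 2.20% of 3907 promoters of genes called higher, 1.35% of 3192 of genes called lower and 1.67% of 6748 of genes not called, and the E-box in 7.15% of all promoters and 9.75% of those of genes tested. The core was found in 8.16% of 49 promoters of the lysosomal hydrolases and in 22.2% of 36 promoters of the V-ATPase and membrane list. The windows below hold the core in capitals. They are shown for a pair of lysosomal genes that rose, Pip4p1, a phosphatase of lysosomal lipids (log2 fold change 0.66), and the galactosidase gene Gla (0.33), whose promoter holds the core at 2 places, and for Calr, the ER chaperone calreticulin, which fell (-1.36). They lie on the minus strand at chr14:50930875-50930926, chrX:134601204-134601255, chrX:134601171-134601222 and chr8:84847127-84847178, and are written along that strand.
Pip4p1: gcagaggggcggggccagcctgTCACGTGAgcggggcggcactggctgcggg
Gla, farther from the start: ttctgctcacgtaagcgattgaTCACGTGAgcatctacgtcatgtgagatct
Gla, nearer to the start: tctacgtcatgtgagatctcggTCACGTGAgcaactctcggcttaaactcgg
Calr: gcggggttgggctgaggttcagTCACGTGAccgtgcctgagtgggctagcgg
A match of letters does not show that a factor binds there, and the core was found before genes that rose, fell and were not called.

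Autophagy genes, whose products build the membrane that delivers cargo to the lysosome, were called higher more often than lower. Of 46 genes tested, 20 were called higher and 7 lower, with a median log2 fold change of 0.13. The share of this list in all TPM was 0.205 to 0.215% in DMSO and 0.270 to 0.276% in torin1. Calcoco1 (ENSMUSG00000023055, chromosome 15, 102706777 to 102722178), a receptor for autophagy of the ER, had the largest rise in the list, from 42.7, 38.9, 36.8 and 37.8 CPM to 142, 143, 148 and 146 CPM. The torin1 libraries lay close together and far above DMSO, and the log2 fold change was 1.89 (SE 0.06, adjusted p = 2.0e-16). The cargo receptor gene Sqstm1 and the membrane protein gene Map1lc3b rose by log2 fold changes of 0.76 (SE 0.13) and 0.67 (SE 0.05), and Atg14 and Wdr45, which act early in membrane formation, by 1.05 (SE 0.075) and 1.13 (SE 0.093). Atg5, Atg4a, Atg4d, Becn1, Atg16l1, Atg9a and Atg2b were called lower, and Atg5 fell from 39.6 ± 1.17 to 24.96 ± 1.38 CPM (SD, n = 4 each). Ulk1, the kinase that starts autophagy, had overlapping groups at 92.7 ± 5.04 and 83.7 ± 6.86 CPM, a log2 fold change of -0.15 (SE 0.069, adjusted p = 0.073).

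The proteins that relay amino acid supply to MTORC1 and TFEB include folliculin (Flcn), its partners Fnip1 and Fnip2, the Rag GTPases and the CASTOR arginine sensors. Of 25 such genes tested, 11 were called higher and 7 lower, with a median log2 fold change of 0.15, while the share of the list in all TPM was lower with torin1, at 0.0877 to 0.0911% in DMSO and 0.0847 to 0.0870% in torin1. Flcn rose from 32.1, 34.1, 33.6 and 28.8 CPM to 51.8, 45.0, 49.96 and 49.2 CPM, and Fnip1 from 28.6, 27.2, 27.5 and 28.7 CPM to 60.1, 40.8, 54.0 and 51.4 CPM. Neither gene had overlapping groups, and the log2 fold changes were 0.61 (SE 0.077, adjusted p = 3.2e-07) and 0.88 (SE 0.11, adjusted p = 2.2e-07). Rragd, a Rag gene of low level at 0.371 ± 0.0878 CPM in DMSO, rose to 1.14 ± 0.429 CPM (SD, n = 4 each) at a log2 fold change of 1.62 (SE 0.29), while Rragc rose by 0.41 (SE 0.064) and Fnip2 by 0.43 (SE 0.088). The related sensor genes Castor1 and Castor2 moved apart, with log2 fold changes of 1.06 (SE 0.087) and -1.04 (SE 0.098).

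Of the transcription factors of the TFEB family, Tfeb was not called, Tfe3 fell and Mitf rose. Tfeb stood at 8.76, 10.2, 10.9 and 9.47 CPM in DMSO and at 8.70, 11.2, 9.75 and 11.3 CPM in torin1, with overlapping groups (log2 fold change 0.06, SE 0.097, adjusted p = 0.63). Tfe3 fell from 97.3, 99.7, 100.7 and 103 CPM to 71.6, 71.3, 70.9 and 71.8 CPM, a log2 fold change of -0.49 (SE 0.039, adjusted p = 1.9e-10) without overlap. Mitf was called higher at 3.24 ± 0.341 and 4.43 ± 1.01 CPM (SD, n = 4 each) and changed by 0.45 on the log2 scale (adjusted p = 0.019), with overlapping groups. The adjusted p of Mitf from edgeR was 0.073 without DMSO replicate 3, 0.096 without torin1 replicate 3 and 0.18 with an offset for transcript length.

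Transcripts of the MTOR pathway itself fell more often than they rose. Of 35 genes tested, 7 were called higher and 16 lower, with a median log2 fold change of -0.13. Mtor stood at 83.7 ± 2.70 CPM in DMSO and 95.8 ± 3.03 CPM in torin1 (SD, n = 4 each) and did not reach the required fold (log2 fold change 0.19, SE 0.04). Rictor, of MTORC2, rose, with a log2 fold change of 0.50 (SE 0.052), and Rptor, of MTORC1, fell by 0.41 on the log2 scale (SE 0.045). Akt1, a kinase downstream of MTORC2, fell from 449 ± 15.9 to 246 ± 19.4 CPM, and the translation repressor gene Eif4ebp1 from 307 ± 53.2 to 128 ± 8.93 CPM. Rheb, the GTPase that activates MTORC1, fell by 0.42 on the log2 scale (SE 0.078), whereas its relative Rhebl1 rose by 1.09 (SE 0.1). Rises were also found for Tsc1, of the complex that holds Rheb inactive (log2 fold change 0.67, SE 0.059), for Pdcd4, an inhibitor of translation initiation (0.85, SE 0.095), and for Sgk1, a kinase related to AKT (0.91, SE 0.098). Deptor, an inhibitor in both complexes, had overlapping groups at 28.04 ± 2.92 and 33.5 ± 2.20 CPM and a log2 fold change of 0.26 (SE 0.094, adjusted p = 0.021) just below the required fold, and it was called without torin1 replicate 1 or 3 and without DMSO replicate 1. The largest falls in this list were those of Ddit4 and Sesn2, which are also ATF4 genes.

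Genes of the ATF4 response had the lowest median of all lists. Of 29 tested, 25 were called lower and 0 higher, with a median log2 fold change of -1.77, and those not called were Vldlr, Ppp1r15a, Cbs and Sestd1. The share of the list in all TPM was 0.260 to 0.372% in DMSO and 0.0997 to 0.106% in torin1. Slc7a11 (ENSMUSG00000027737, chromosome 3, 49892526 to 50443614), the cystine importer that feeds glutathione synthesis, fell from 40.8, 19.7, 13.0 and 14.6 CPM to 0.352, 0.413, 0.207 and 0.145 CPM. The log2 fold change was -6.28 (SE 0.94, adjusted p = 2.4e-09), the torin1 levels rest on at most 13 counts a library, and the passage 12 DMSO library was above the other DMSO libraries. Trib3 (ENSMUSG00000032715, chromosome 2, 152337422 to 152344032), a pseudokinase that restrains AKT and ATF4, fell from 114, 61.7, 61.9 and 65.0 CPM to 1.66, 2.13, 1.36 and 1.70 CPM, a log2 fold change of -5.47 (SE 0.39, adjusted p = 2.3e-12). Ddit4 (ENSMUSG00000020108, chromosome 10, 59949669 to 59951834) and Sesn2, which encode stress-induced inhibitors of MTORC1, fell from 57.0 ± 7.83 to 2.87 ± 0.776 CPM and from 89.3 ± 11.1 to 9.42 ± 1.29 CPM (SD, n = 4 each). Their groups lay far apart, and their log2 fold changes were -4.31 (SE 0.16) and -3.24 (SE 0.14).

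The transcript of Atf4 itself fell from 564, 486, 478 and 497 CPM to 153, 126, 142 and 137 CPM, a log2 fold change of -1.86 (SE 0.091, adjusted p = 1.0e-13). Asns, which makes asparagine, fell from 585, 466, 359 and 396 CPM to 139, 110.2, 144 and 137 CPM. Neither gene had overlapping groups, and the log2 fold change of Asns was -1.77 (SE 0.15). Stc2, a secreted glycoprotein, Chac1, which degrades glutathione, Adm2, a peptide hormone, and the relatives Atf5 and Atf3 fell by log2 fold changes of -3.96, -3.42, -3.35, -2.48 and -2.23. Ddit3, which encodes the death-associated factor CHOP, fell from 23.2 ± 5.32 to 13.5 ± 1.39 CPM (SD, n = 4 each) and so by 0.78 on the log2 scale (SE 0.17). Ppp1r15a, whose product reverses the eIF2 phosphorylation that induces ATF4, stood at 34.5 ± 4.56 and 33.8 ± 1.599 CPM with overlapping groups (log2 fold change -0.03, adjusted p = 0.77), and its sign changed with the scaling of the libraries. Cebpb fell by 0.53 on the log2 scale (adjusted p = 0.0059), and its value was -0.26 (adjusted p = 0.14 from edgeR) when the passage 12 libraries of both groups were left out, an alternative chosen after seeing the data.

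ATF4 binds with C/EBP partners to the element TGATGCAA, TTGCATCA on the other strand, and promoters were searched for it on both strands. It was found in 0.895% of all 32851 promoters, in 0.527% of the 13847 of genes tested, in 4.23% of 284 promoters of genes called and at least 2-fold lower, and in 0.286% of 1050 promoters of genes called and at least 2-fold higher. The share was 25.8% of 31 promoters in the ATF4 list, in 8 genes, and 23.5% of 17 among aminoacyl-tRNA synthetases, in 4 genes. The windows below, with the element in capitals, are shown for genes that fell. They lie on the minus strand at chr3:50443631-50443701 (Slc7a11) and chr11:120643822-120643873 (Pycr1, an enzyme of proline synthesis, with a log2 fold change of -1.51) and on the plus strand at chr2:119351027-119351078 (Chac1) and chr8:94386295-94386346 (Herpud1, of ER protein degradation, -2.15), and each is written along its gene.
Slc7a11: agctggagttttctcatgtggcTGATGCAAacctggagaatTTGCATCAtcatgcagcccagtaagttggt
Chac1: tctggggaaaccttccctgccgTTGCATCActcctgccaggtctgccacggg
Herpud1: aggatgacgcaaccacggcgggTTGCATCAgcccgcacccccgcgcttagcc
Pycr1: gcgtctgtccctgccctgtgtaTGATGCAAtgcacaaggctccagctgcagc
The Slc7a11 window holds the element in both orientations. The promoter of Vldlr also holds it, and Vldlr was not called.

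Amino acid transporters, which share Slc7a11 and Slc3a2 with the ATF4 list, fell as well. Of 22 tested, 15 were called lower and 2, Slc38a7 and Slc7a2, higher, with a median log2 fold change of -0.96. Slc7a5, which imports leucine and other large neutral amino acids, fell from 805, 693, 558 and 557 CPM to 147, 157, 139 and 144 CPM, without overlap (log2 fold change -2.16, SE 0.14, adjusted p = 1.0e-11). Slc7a1, a transporter of arginine and lysine, fell from 282 ± 30.4 to 63.9 ± 4.11 CPM, Slc1a4, which carries alanine, serine and cysteine, from 117 ± 6.94 to 24.4 ± 3.60 CPM, and Slc38a2, which carries small neutral amino acids, from 389.8 ± 22.2 to 195 ± 15.9 CPM (SD, n = 4 each). Slc38a7, a glutamine carrier of lysosomes, rose, with a log2 fold change of 0.57 (SE 0.098).

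Among the enzymes that load amino acids onto tRNA and their cofactors, 17 of 23 genes tested were called lower and 1, Qars, higher, with a median log2 fold change of -0.55. The list's share of all TPM was 0.455 to 0.611% in DMSO and 0.304 to 0.332% in torin1. Cars, the cysteinyl enzyme, fell from 239.7, 201, 169 and 176 CPM to 54.9, 41.3, 45.4 and 41.4 CPM, a log2 fold change of -2.10 (SE 0.14), and Aars, the alanyl enzyme, from 836 ± 108 to 243 ± 4.82 CPM (SD, n = 4 each). Members without a call were Rars, Vars, Kars, Dars and Aimp1, and for Kars and Dars the log2 fold changes were 0.12 (SE 0.041) and 0.19 (SE 0.04). Qars, the glutaminyl enzyme, rose from 143 ± 4.47 to 188 ± 1.47 CPM.

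Of 20 genes of serine synthesis and one-carbon metabolism, 12 were called lower and 2, Mtr and Mthfs, higher, with a median log2 fold change of -0.42. Psph and Psat1, enzymes of serine synthesis, fell by log2 fold changes of -2.74 (SE 0.21) and -1.97 (SE 0.094). Mthfd2, a mitochondrial folate enzyme, fell from 292, 239, 233 and 247 CPM to 44.2, 39.9, 41.0 and 39.9 CPM, with no overlap (log2 fold change -2.62, SE 0.11, adjusted p = 2.2e-14). Mtr, methionine synthase, had a log2 fold change of 0.28 (SE 0.074) with overlapping groups. Neither Mtr nor Mthfs was called without DMSO replicate 1 or 2, and 1 of them was called without torin1 replicate 4. Purine and pyrimidine synthesis genes were called lower in 8 (33.3%) and higher in 3 (Paics, Adss and Adssl1, 12.5%) of 24. These shares lie near the 36.3% lower and 12.8% higher of all genes tested in the highest group by mean CPM. The share of the list in all TPM overlapped, at 0.296 to 0.318% in DMSO and 0.301 to 0.317% in torin1. In it Nme1, a nucleotide kinase, fell from 149 ± 6.29 to 74.3 ± 3.65 CPM and Paics, of purine synthesis, rose from 361 ± 19.5 to 515 ± 24.4 CPM (SD, n = 4 each).

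**Figure D3:**
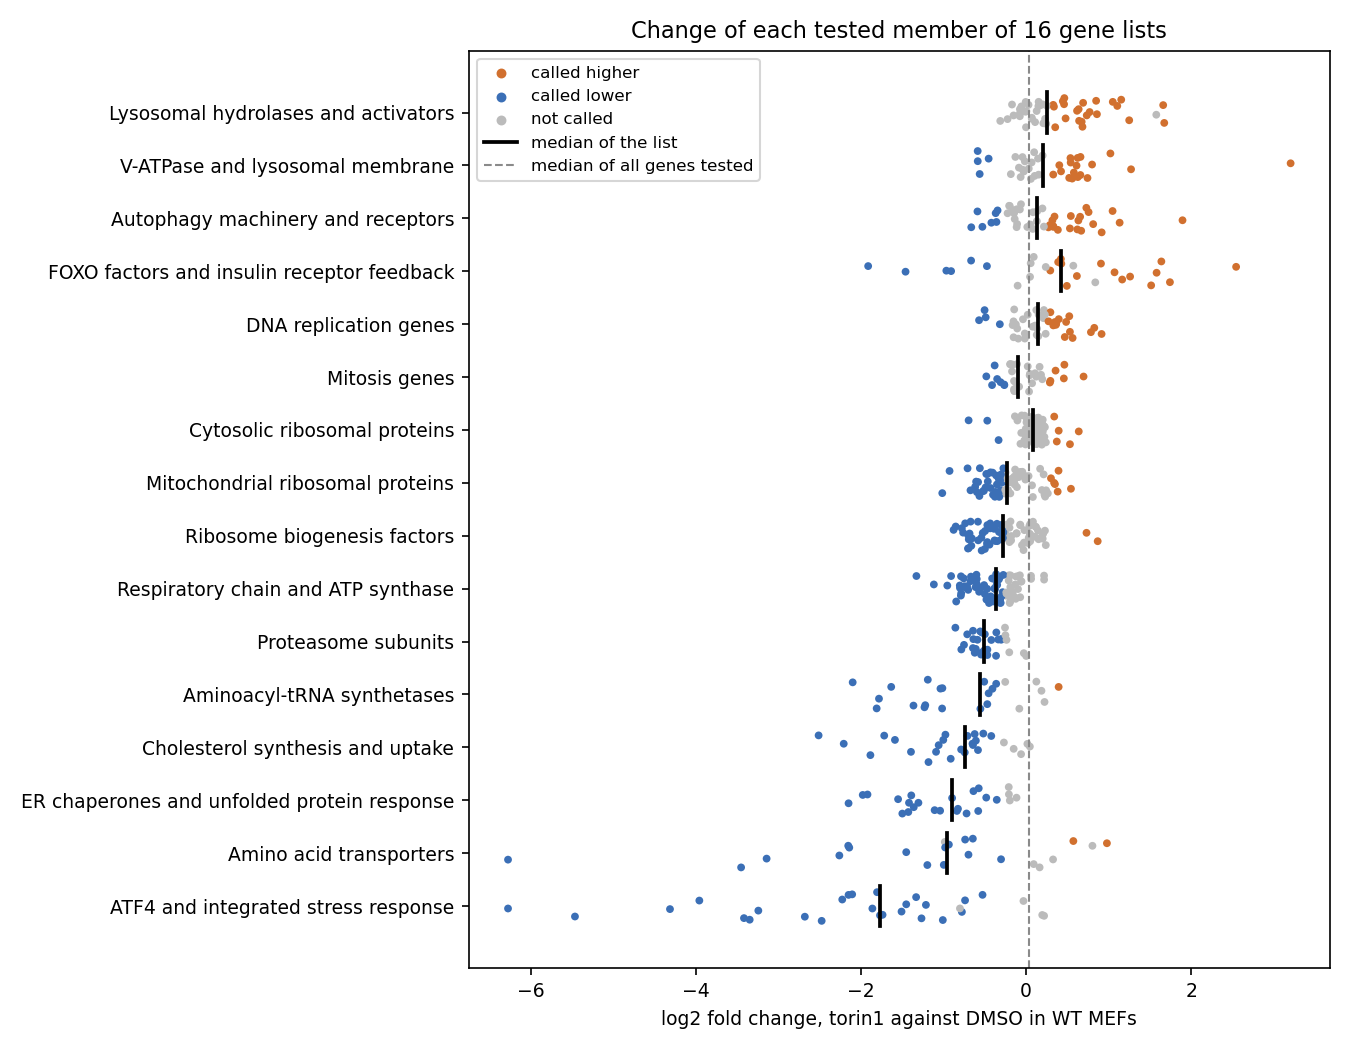
Log2 fold change of torin1 against DMSO in WT MEFs for each tested member of 16 gene lists, coloured by call, with black bars at list medians and a dashed line at the median of all genes tested, 0.04. Medians run from 0.42 for FOXO and insulin receptor genes to -1.77 for ATF4 genes.

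Genes for cholesterol supply are switched on by SREBF2, whose activation MTORC1 promotes. Of 27 tested, 22 were called lower and 0 higher, with a median log2 fold change of -0.74. Hmgcs1, at the entry of the pathway, fell from 59.6, 108, 109.5 and 108 CPM to 33.8, 41.3, 38.2 and 32.9 CPM, a log2 fold change of -1.40 (SE 0.25, adjusted p = 3.4e-05). The groups did not overlap, and the passage 12 DMSO library was below the other DMSO libraries. Msmo1, a sterol oxidase, fell by 2.21 on the log2 scale (SE 0.22), Insig1, which holds SREBF proteins in the ER, by 1.18 (SE 0.23) and Srebf2 by 0.74 (SE 0.14). Srebf1, the related factor of fatty acid synthesis, stood at 118 ± 13.2 and 134 ± 6.29 CPM with overlapping groups and was not called (log2 fold change 0.19, adjusted p = 0.027). Of 19 fatty acid genes tested, 11 were called lower. Scd2, a desaturase, fell from 1298 ± 384 to 323 ± 61.6 CPM, Elovl6, an elongase, from 67.9 ± 14.4 to 19.3 ± 1.90 CPM and Fasn, the fatty acid synthase, from 708 ± 56.6 to 392 ± 37.5 CPM (SD, n = 4 each). The 1 gene called higher was Acacb, the mitochondrial form of acetyl-CoA carboxylase, which rose from 2.20 ± 0.297 to 7.93 ± 0.999 CPM.

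Genes of glucose use and of the antioxidant response fell in the majority. Of 26 glycolysis and hypoxia-factor genes tested, 16 were called lower and 4 higher, with a median log2 fold change of -0.42. Slc2a1, the glucose transporter GLUT1, fell from 103, 106, 108 and 101.3 CPM to 46.9, 57.3, 41.5 and 46.8 CPM, and Ldha, which makes lactate, from 812 ± 66.9 to 412 ± 18.8 CPM (SD, n = 4 each). Hk2, a hexokinase, and Vegfa, an angiogenic factor, fell by log2 fold changes of -0.98 (SE 0.1) and -1.49 (SE 0.13), and Hif1a, the hypoxia factor, by -0.40 (SE 0.052). Genes called higher were Hk1, Pfkm, Pdk1 and Ndrg1, of which Pdk1, a brake on pyruvate oxidation, rose from 16.4 ± 1.96 to 25.4 ± 2.36 CPM and the stress gene Ndrg1 from 26.5 ± 5.34 to 53.7 ± 1.19 CPM. Among 20 genes of the pentose phosphate pathway and of the antioxidant factor NRF2, 15 were called lower and 2, Cat and Pgls, higher, also with a median of -0.42. G6pdx, the first enzyme of the pathway, fell from 95.5 ± 6.61 to 59.1 ± 4.25 CPM and Hmox1, which degrades heme, from 40.1 ± 3.70 to 20.2 ± 2.09 CPM, and Cat, catalase, rose, with a log2 fold change of 0.37 (SE 0.05). Only 1 gene of that list was called higher without torin1 replicate 1 or DMSO replicate 2 or 3.

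Few transcripts for the parts of the ribosome were called, and many for its assembly were called lower. Of 82 cytosolic ribosomal protein genes tested, 5 (Rpl22l1, Rps20, Rpl12, Rpl3 and Rpl10a) were called higher and 3 (Rps27l, Rpl36al and Rpl27) lower, with a median log2 fold change of 0.08. Rps6, the classic substrate of S6 kinase, stood at 1195, 1143, 1140 and 1174 CPM in DMSO and at 1178, 1172, 1220 and 1120 CPM in torin1, with overlapping groups (log2 fold change 0.01, SE 0.038). Rpl10a rose by 0.64 (SE 0.037) on the log2 scale and Rpl3 by 0.53 (SE 0.035), and Rps27l fell by 0.70 (SE 0.051). The count of rises depended on the processing, and was 20 when libraries were scaled by total count alone and 31 when a trend with GC content and transcript length was removed, an alternative chosen after seeing the data. The share of this list in all TPM was 17.5 to 18.4% in DMSO and 20.2 to 21.1% in torin1. Ribosomal protein genes have many near-identical pseudogenes, so single values are uncertain.

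Of 78 ribosome biogenesis factors tested, 40 were called lower and 2, Polr1c and Taf1b, higher, with a median log2 fold change of -0.28. Rrs1, Nolc1 and Bop1, which act in the nucleolus, fell by log2 fold changes of -0.88 (SE 0.093), -0.76 (SE 0.06) and -0.69 (SE 0.056), and Taf1b, an initiation factor of RNA polymerase I, rose by 0.87 (SE 0.094). The count of rises was 4 without torin1 replicate 1 or 2 or DMSO replicate 4, and 6 with scaling by total count alone. Ncl, the abundant nucleolar protein nucleolin, stood at 2240 ± 169 and 1884 ± 204 CPM (SD, n = 4 each) with overlapping groups, and Polr1b, a subunit of RNA polymerase I, at 94.3 ± 8.93 and 83.3 ± 5.98 CPM. Neither was called, although Ncl was called lower without DMSO replicate 1 or 2 and without torin1 replicate 4. Among 45 translation factors tested, 14 were called lower (31.1%) and 5 (Eif4b, Eef2k, Eif4a2, Eif3a and Eef2) higher (11.1%), or 11 higher with scaling by total count alone. These shares lie near the 36.3% lower and 12.8% higher of genes tested in the highest group by mean CPM. The share of the translation factors in all TPM, without TMM scaling, was higher with torin1, at 3.30 to 3.50% in DMSO and 3.63 to 3.79% in torin1. That of the ribosome biogenesis factors overlapped, at 1.17 to 1.34% and 1.09 to 1.31%. Eif4e, which binds the mRNA cap and is held by 4E-BPs when MTORC1 is off, fell from 172, 163, 166 and 179 CPM to 96.1, 90.1, 88.6 and 85.9 CPM. Eif4b, a helper of the helicase that unwinds mRNA, rose from 807, 738, 745 and 773 CPM to 1376, 1288, 1340 and 1262 CPM. Neither had overlapping groups, the log2 fold changes were -0.92 (SE 0.048) and 0.78 (SE 0.045), and Eef2, the elongation factor, rose by 0.40 (SE 0.042).

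Nuclear genes for proteasomes and for the respiratory chain fell in the majority by small folds. Of 32 proteasome genes tested, 26 were called lower and 0 higher, with a median log2 fold change of -0.51, and 26 were also called lower after removal of the GC and length trend. Psmd7, of the regulatory particle, fell from 239, 245, 241 and 264 CPM to 143, 135, 139 and 129 CPM, without overlap (log2 fold change -0.86, SE 0.041). Nfe2l1, the factor that induces proteasome genes, fell by 0.64 on the log2 scale (SE 0.046). Of 75 genes for the respiratory chain and ATP synthase, 49 were called lower and 0 higher, with a median of -0.36. Cycs, the electron carrier cytochrome c, fell from 142, 128, 127 and 138 CPM to 60.4, 52.8, 54.2 and 45.6 CPM, without overlap (log2 fold change -1.33, SE 0.059, adjusted p = 2.1e-14), and Uqcrq and Ndufs6, subunits of complexes III and I, fell by 1.12 (SE 0.063) and 0.91 (SE 0.066). After removal of the GC and length trend 31 of these genes were called lower and 1 higher. The mitochondrially encoded genes held 2.25 to 2.89% of all TPM in DMSO and 2.54 to 3.18% in torin1, with overlap. Of 78 mitochondrial ribosomal protein genes, 35 were called lower and 6 higher, and the counts were 22 and 12 after removal of that trend and 23 and 13 with scaling by total count alone. In this list Mrpl20 fell by 1.02 on the log2 scale (SE 0.048) and Mrps2 rose by 0.54 (SE 0.04).

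**Figure D4:**
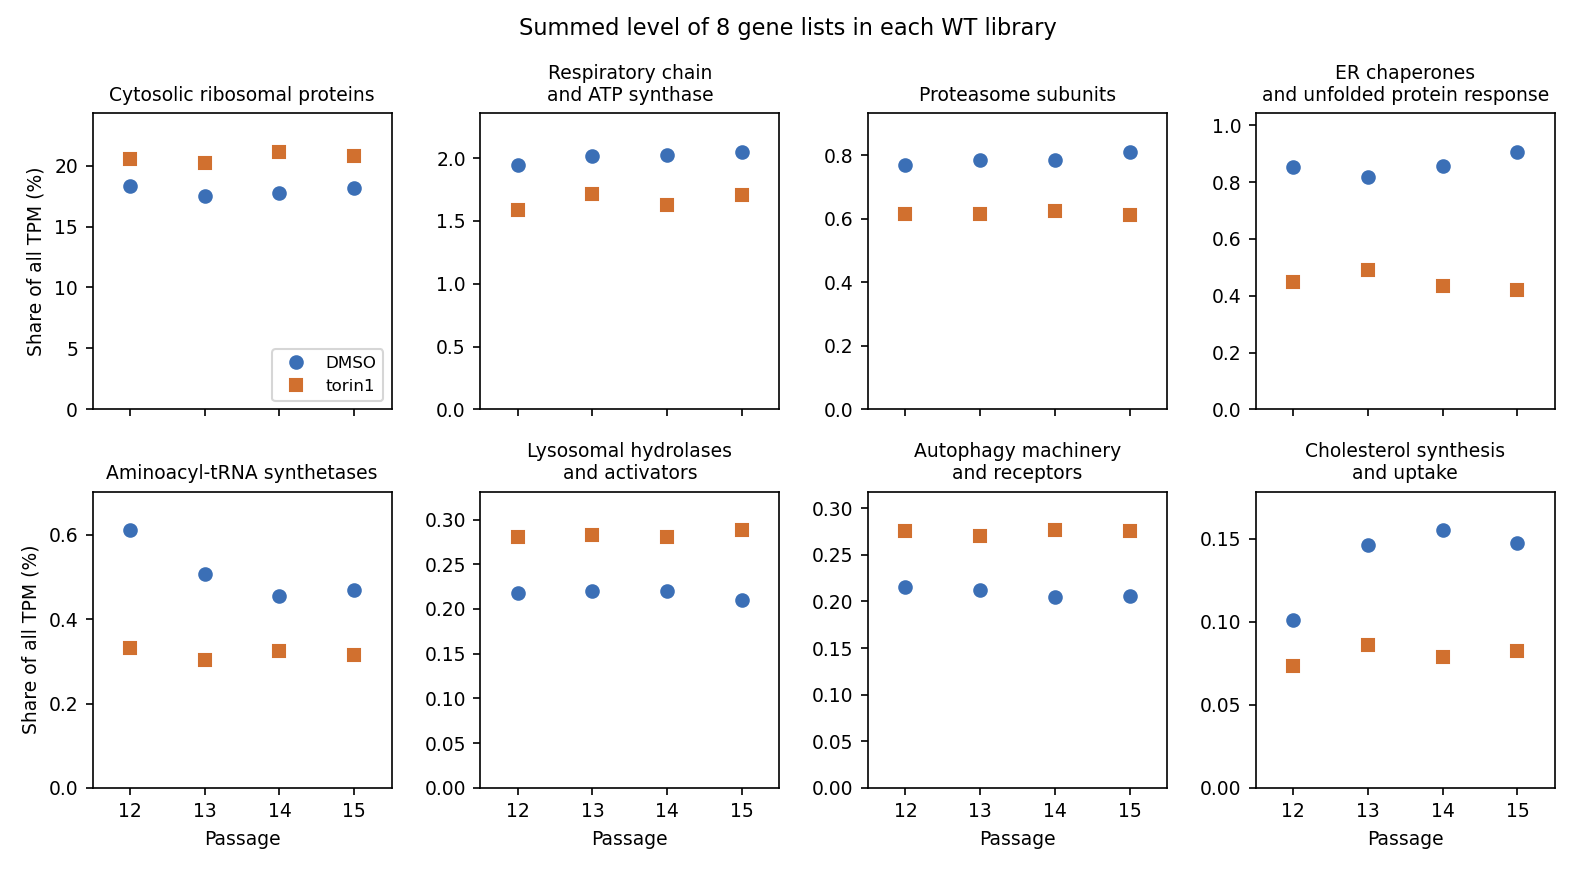
Summed level of 8 gene lists as a percentage of all TPM in each WT library by passage, for DMSO (blue circles) and torin1 (orange squares), with axes starting at 0. Ribosomal protein, lysosomal hydrolase and autophagy genes take a larger share in every torin1 library than in any DMSO library, and the other 5 lists a smaller one.

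FOXO factors, their targets and the receptors that feed the AKT pathway rose in the majority. Of 28 genes tested, 15 were called higher and 6 lower, with a median log2 fold change of 0.42. Foxo3 rose from 59.3, 65.1, 58.0 and 55.4 CPM to 139, 148, 140.5 and 142 CPM, without overlap (log2 fold change 1.26, SE 0.055, adjusted p = 1.6e-14), and Foxo1 by 0.91 (SE 0.11). Txnip (ENSMUSG00000038393, chromosome 3, 96557957 to 96561883), which binds thioredoxin and lowers glucose uptake, rose from 30.1, 15.6, 15.6 and 19.1 CPM to 99.8, 114, 131 and 126 CPM, a log2 fold change of 2.54 (SE 0.32, adjusted p = 3.6e-07). The cyclin gene Ccng2, a FOXO target, and Pik3ip1, an inhibitor of PI3K, rose by 1.51 (SE 0.085) and 1.74 (SE 0.14). The insulin receptor gene Insr rose from 35.5 ± 1.33 to 54.3 ± 4.28 CPM and its adaptor genes Irs1 and Irs2 from 85.5 ± 3.17 to 115 ± 19.4 CPM and from 75.7 ± 7.25 to 159 ± 6.99 CPM (SD, n = 4 each). The regulatory PI3K subunits Pik3r1 and Pik3r3 fell by 0.91 (SE 0.062) and 1.91 (SE 0.13) on the log2 scale. Outside the lists, the largest rises among annotated genes with a mean of at least 10 CPM were those of Mettl27, from 2.60 ± 0.259 to 18.1 ± 1.81 CPM, Klhl24, from 12.7 ± 1.52 to 69.8 ± 6.71 CPM, Ccn3, a secreted matrix protein, from 6.45 ± 1.31 to 32.8 ± 4.06 CPM, and Crebrf, from 5.40 ± 0.398 to 26.8 ± 3.12 CPM. A lack of overlap between the groups was a condition for this ranking, as was the mean level over the 8 libraries. Mettl27, Ccn3 and Crebrf reached that level only through their torin1 libraries.

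The chaperones that fold proteins in the endoplasmic reticulum (ER) fell. Of 25 ER and unfolded protein response genes tested, 21 were called lower and 0 higher, with a median log2 fold change of -0.90, and their share of all TPM was 0.818 to 0.907% in DMSO and 0.419 to 0.489% in torin1. Hspa5 (ENSMUSG00000026864, chromosome 2, 34771970 to 34777547), the main ER chaperone BiP, fell from 1669, 1532, 1698 and 1800 CPM to 410.1, 521, 391 and 376 CPM. The groups were far apart, and the log2 fold change was -1.98 (SE 0.076, adjusted p = 3.3e-15). Calr fell from 2020 ± 178 to 786 ± 78.4 CPM, Hsp90b1, the ER member of the HSP90 family, from 1850 ± 94.1 to 1043 ± 72.1 CPM, and Xbp1, a transcription factor of the response, from 84.5 ± 5.31 to 32.2 ± 5.03 CPM (SD, n = 4 each). Herpud1, which belongs to both this list and the ATF4 list, fell by 2.15 on the log2 scale (SE 0.11). Ern1, Dnajb9, Canx and Eif2ak3 were not called. Among heat shock chaperones, 16 of 26 genes tested were called lower and 1, Cct4, higher, with a median log2 fold change of -0.28. The share of this list in all TPM, without the TMM scaling used for the calls, was higher with torin1, at 1.58 to 1.65% in DMSO and 1.69 to 1.75% in torin1. Hspb8, a small heat shock protein, fell by 1.25 (SE 0.15), and Cct4, of the chaperonin that folds actin and tubulin, rose by 0.47 (SE 0.038).

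G1 cyclins, their kinases and the inhibitors and transcription factors that act with them fell in the majority, whereas several genes of DNA replication rose. Of 25 G1 genes tested, 15 were called lower and 3, Rbl2, Cdkn1c and Rb1, higher, with a median log2 fold change of -0.28. Ccnd2 (ENSMUSG00000000184, chromosome 6, 127125162 to 127152193), a D-type cyclin, fell from 548, 445, 467 and 501 CPM to 96.1, 86.1, 90.8 and 95.8 CPM, without overlap (log2 fold change -2.41, SE 0.068, adjusted p = 4.8e-17). Ccnd1, its relative, fell from 364 ± 40.8 to 139 ± 12.8 CPM, and the inhibitor Cdkn1a from 41.9 ± 16.2 to 16.5 ± 2.65 CPM (SD, n = 4 each). Rb1, the retinoblastoma gene, rose, with a log2 fold change of 0.94 (SE 0.15), and Cdk4, the kinase partner of D cyclins, was not called (0.15, SE 0.035). Of 41 DNA replication genes tested, 15 were called higher and 4 (Fen1, Pole2, Tk1 and Gins1) lower, with a median of 0.15. Pole, a replicative polymerase, rose from 149, 128, 126 and 126 CPM to 259.7, 233, 256 and 248 CPM, without overlap (log2 fold change 0.91, SE 0.057). Cdt1, which loads the helicase, rose by 0.78 (SE 0.053), and Fen1, a flap nuclease, fell by 0.57 (SE 0.038). Mcm2, a subunit of that helicase, stood at 284 ± 2.30 and 299.7 ± 3.69 CPM and was not called.

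Mitosis genes were called lower in 7 (20.6%) and higher in 6 (17.6%) of 34, with a median log2 fold change of -0.10. Over all genes tested the shares were 21.1% and 26.6%. The median level of the list was 161 CPM, and in the highest group by mean CPM the shares were 36.3% and 12.8%. Against that group mitosis genes were called lower less often and higher a little more often. Aurka and Ccnb1, a mitotic kinase and cyclin, fell by 0.48 (SE 0.072) and 0.35 (SE 0.053) on the log2 scale, and Cenpe, a kinetochore motor, rose by 0.70 (SE 0.062). Scaling by total count alone left 3 mitosis genes called lower, and without torin1 replicate 3 there were 4. Of 25 immediate early and ERK feedback genes, 9 were called lower (36.0%) and 2, Dusp1 and Dusp4, higher (8.0%), with a median of -0.09. Fosl1, a member of the AP-1 family, fell from 90.9 ± 12.4 to 40.3 ± 7.91 CPM and Dusp1, a phosphatase, rose from 33.9 ± 2.03 to 46.9 ± 8.33 CPM (SD, n = 4 each). Only 1 of these genes was called higher without DMSO replicate 1 or 2 or torin1 replicate 4. Fos, with overlapping groups, stood at 3.78 ± 1.12 and 3.30 ± 1.27 CPM. Myc, a transcription factor of growth, stood at 212, 157, 154 and 151 CPM in DMSO and 251, 174, 178 and 176 CPM in torin1 and was not called (log2 fold change 0.21, adjusted p = 0.23). In both groups its passage 12 library was above the other 3.

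Of 33 genes of collagens, matrix and collagen-modifying enzymes, 10 were called lower (30.3%) and 1, Fn1, higher (3.03%), with a median log2 fold change of -0.17. The median level of the list was 215 CPM, and in the highest group by mean CPM 36.3% of genes tested were called lower and 12.8% higher. Serpinh1, the collagen chaperone, fell from 1558, 1698, 1526 and 1517 CPM to 471, 704, 476 and 531 CPM, without overlap (log2 fold change -1.53, SE 0.09), P4ha2, a prolyl hydroxylase, from 53.8 ± 4.80 to 26.7 ± 4.17 CPM and Col4a1, of basement membrane collagen, from 1001 ± 18.3 to 513 ± 107 CPM (SD, n = 4 each). Col1a1, the main chain of type I collagen, stood at 2382, 4842, 3675 and 3404 CPM in DMSO and 957, 2941, 1319 and 1667 CPM in torin1. Its groups overlapped, with the passage 13 library the highest and the passage 12 library the lowest of each group, and the log2 fold change was -1.05 (SE 0.25, adjusted p = 9.6e-04). Its partner Col1a2 had a log2 fold change of -0.85 (SE 0.29, adjusted p = 0.014), and its adjusted p from edgeR was 0.050 to 0.055 without DMSO replicate 2, torin1 replicate 3 or torin1 replicate 4. Without torin1 replicate 2, the passage 13 library, 16 matrix genes were called lower. There were 2 matrix genes called higher without DMSO replicate 2 or torin1 replicate 4, and 4 with passage as a block. Fn1, fibronectin, rose from 3533 ± 395 to 6334 ± 522 CPM (SD, n = 4 each).

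The response to torin1 in AMPK KO cells was set beside that in WT cells by a test of the difference itself. In AMPK KO, 25.9% of genes tested were called higher and 17.6% lower with torin1, 43.5% in either direction. Transcripts of Prkaa1 and Prkaa2, which encode the AMPK catalytic subunits, were present in the AMPK KO libraries, so the counts do not check the genotype label. The response differed between the genotypes in 7.07% of genes tested, of which 657 (4.15% of genes tested) had a higher and 462 (2.92%) a lower log2 fold change in AMPK KO than in WT. With passage as a block, 987 genes had a higher and 874 a lower log2 fold change in AMPK KO. The split between higher and lower was not stable, with 58.7% of the differences higher in AMPK KO as reported, 42.1% when libraries were scaled by total count alone and 27.04% when only the libraries compared were fitted, which also changes the genes tested and the estimate of spread. It was between 26.8% and 29.1% without WT torin1 replicate 1 or 3, AMPK KO DMSO replicate 3 or 4, or AMPK KO torin1 replicate 2 or 4.

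Of the 25 ER genes, 18 had a higher log2 fold change in AMPK KO and 0 a lower one, against the 4.15% and 2.92% of all genes tested, and the list's median log2 fold change was -0.90 in WT and -0.43 in AMPK KO. Hspa5 fell by 1.98 in WT and by 1.34 in AMPK KO on the log2 scale, a difference of 0.64 (SE 0.11, adjusted p = 6.6e-04). Calr, Hsp90b1 and Sdf2l1, an ER cochaperone, differed by 0.55 (SE 0.09), 0.47 (SE 0.067) and 0.67 (SE 0.14). Xbp1, whose log2 fold change was -1.39 in WT and -1.72 in AMPK KO, was not called in this test (-0.32, SE 0.13, adjusted p = 0.11). The count of 18 was between 15 and 20 in the alternatives, except with a required fold of 1.5, which left 7, and in a test against a fold of 1.2, which left 6. Among 34 mitosis genes, 10 had a higher log2 fold change in AMPK KO. That count was between 1 and 3 without WT torin1 replicate 1 or 3, AMPK KO DMSO replicate 3 or 4, or AMPK KO torin1 replicate 2 or 4, 5 or 6 without WT DMSO replicate 3 or 1, and 3 in the fit of the compared libraries alone.

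Of 29 ATF4 genes, 2 (Ddit4 and Sesn2, 6.90%) had a higher and 1 (Chac1, 3.45%) a lower log2 fold change in AMPK KO. These shares lie near the 4.15% and 2.92% of all genes tested. There were 2 genes with a lower one without AMPK KO DMSO replicate 2 or WT torin1 replicate 4, and 3 without WT DMSO replicate 4. Ddit4 changed by -4.31 in WT and -2.87 in AMPK KO, a difference of 1.44 (SE 0.21, adjusted p = 1.0e-04), and Chac1 by -3.42 and -4.61, a difference of -1.19 (SE 0.25). Of 49 lysosomal hydrolase genes, 2 (4.08%), Sumf1 and Ids, differed, both by 0.29 on the log2 scale, also near the 4.15% of all genes tested. That count was 0 without WT torin1 replicate 1 or 3, AMPK KO DMSO replicate 3 or 4 or AMPK KO torin1 replicate 4, 1 without AMPK KO torin1 replicate 2 or 3 or WT torin1 replicate 4, and 4 without WT DMSO replicate 4. Mcoln1, Hexa, Ctsa and Gpnmb were not called in this test, with differences of 0.05 (SE 0.1), -0.07 (SE 0.12), 0.11 (SE 0.085) and 1.04 (SE 0.53). The largest called differences among genes with a mean of at least 10 CPM included that of Slc7a3, an arginine transporter, which stood at 42.9, 18.7, 15.8 and 16.4 CPM in DMSO and 2.53, 1.65, 1.802 and 2.65 CPM in torin1 in WT. Its log2 fold change was -3.45 in WT and 0.29 in AMPK KO, a difference of 3.74 (SE 0.6, adjusted p = 3.9e-04). Klf4, a transcription factor, had log2 fold changes of -0.10 and -1.25, and Rragd of 1.62 and 0.49. In Tfeb the log2 fold change was 0.06 in WT and -0.46 in AMPK KO, a difference of -0.52 (SE 0.14, adjusted p = 0.018), and in Fnip1 0.88 and 1.37, a difference of 0.49 (SE 0.15, adjusted p = 0.044).

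**Figure D5:**
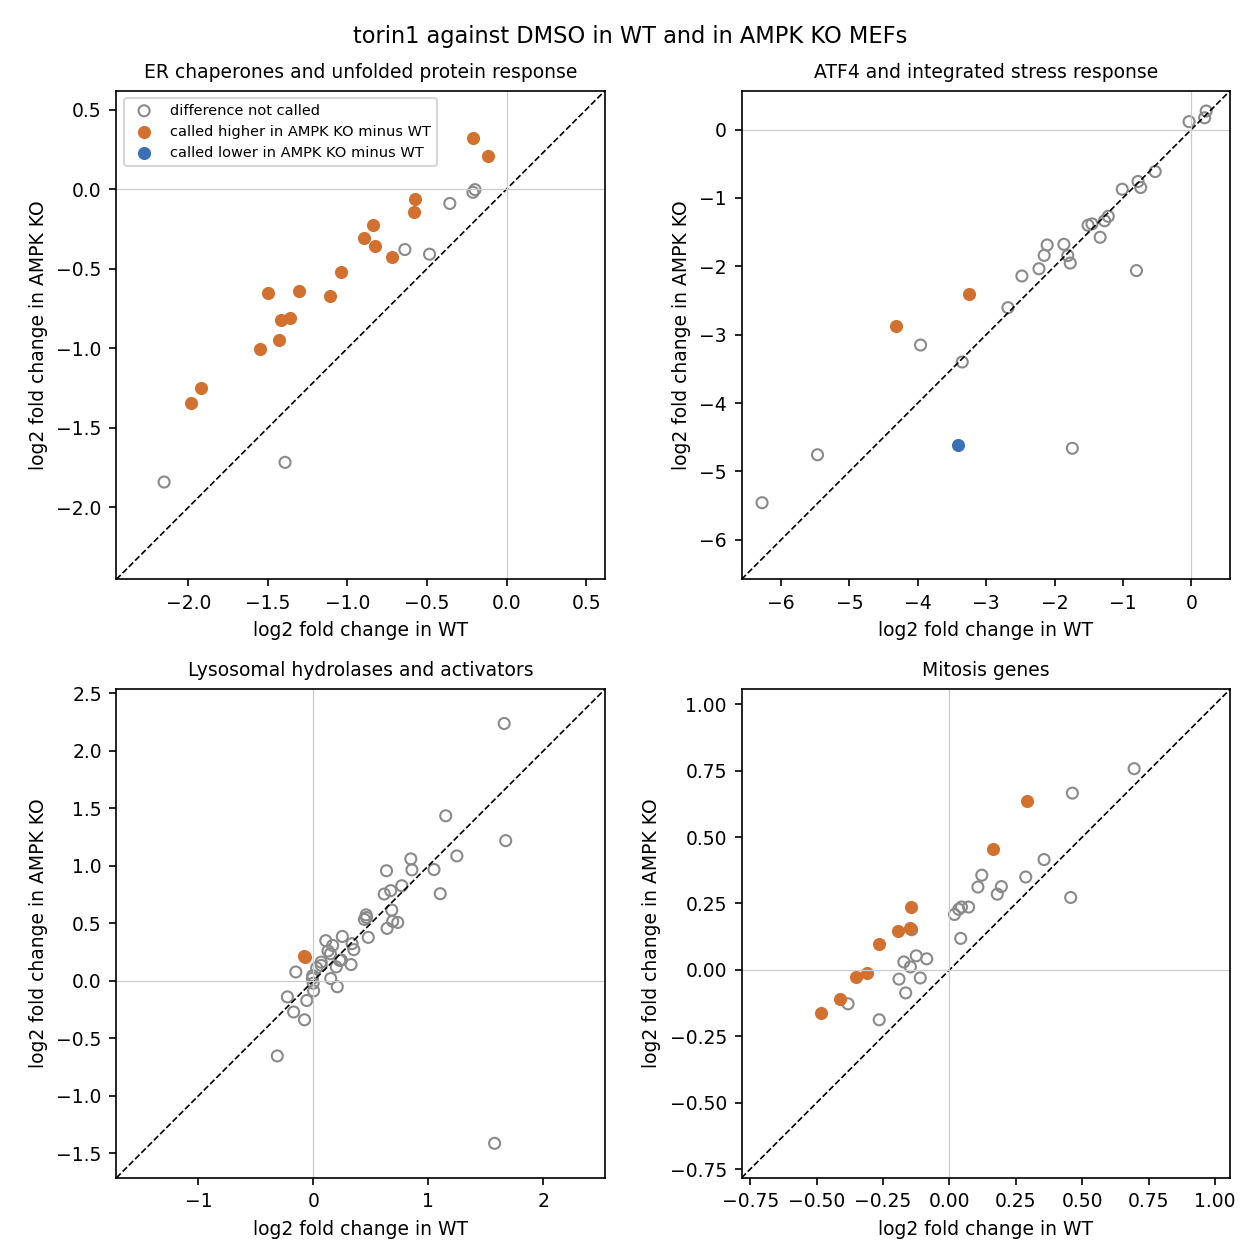
Log2 fold change of torin1 against DMSO in WT (horizontal) and in AMPK KO (vertical) MEFs for the tested members of 4 gene lists, with the dashed line marking equal change and filled points the genes whose difference was called. In the ER list 18 of 25 points are filled and lie above the line, and in the ATF4 list the filled points are Ddit4 and Sesn2 above and Chac1 below it.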

How the data were processed

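Polyadenylated RNA of 24 MEF libraries, 4 per group, was sequenced in pairs, and each label gives passage and RNA integrity. All libraries carry the same batch label. The study's methods mention removal of a batch effect without naming the batch, and the main fit here used no batch term. The authors aligned the reads to GRCm38 with STAR and quantified them with Salmon in the nf-core/rnaseq pipeline, and deposited estimated counts per gene. The deposited TPM values, which the authors obtained from the same quantification and which are scaled to transcript length, were used only for summed shares and marker levels. Molecular identifiers were considered in that pipeline. The versions of STAR and Salmon are not given in the sources used here.

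Estimated counts were rounded, and 15828 genes of 55487 passed edgeR's filterByExpr, holding 99.96% of the counts. They were scaled by TMM and tested with edgeR 4.0.16 (R 4.3.3) by the quasi-likelihood F test, two-sided, on all 24 libraries with 6 group means, with calls made as described above. The difference between genotypes was an interaction contrast. SE values are those of the fitted log2 fold changes. Alternatives covered scaling, filters, rounding, a length offset, blocks, the fold required, DESeq2 1.42.0 and leaving out each library. The alternatives without passage 12 and with a GC and length trend removed were chosen after seeing the data. Libraries of a group differed by more than counting noise, so none was a duplicate.

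The 31 gene lists and the named genes were chosen with earlier results of these data known. Genes are named where they were among the 6 largest called rises or falls without overlap at a mean of at least 10 CPM (gene models and pseudogenes passed over), the called member with the largest rise or fall of a list at a mean of at least 5 CPM, 1 of 44 chosen genes, or among the 2 largest genotype differences per direction. The values of 2 genes in these lists are not reported here. Further examples were chosen after their values were seen. The scripts were tested on simulated counts.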

Additional observations from a re-analysis of the deposited data

Results flagged for a closer look

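In 22 of the 348 groups of 4 WT libraries examined for 174 named genes, 1 library stood apart from the other 3 by Dixon's test at the 95% level. Chance alone gives about 1 in 20 such groups, or 17.4. In 20 of the 22 the library apart was that of passage 12 and in 2 that of passage 13. In DMSO, the passage 12 library was the highest for Trib3 (114 CPM), Slc7a3 (42.9), Vegfa (79.3), Pole (149), Myc (212), Wdr45 (23.8), Rheb (119.6), Adm2 (7.19), Slc7a1 (328), Slc1a4 (127) and Cdkn1a (65.8), and the lowest for Hmgcs1 (59.6) and Xbp1 (76.6). In torin1 it was the highest for Fosl1 (52.1), Irs1 (144), Irs2 (169), Myc (251), Rheb (83.0) and Pik3r1 (19.4), and the lowest for Ctns (16.9). The passage 13 DMSO library stood apart for Castor1 (4.06, the lowest) and Hmox1 (45.6).

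The response to torin1 differed between the genotypes in 26 of the 174 named genes tested by edgeR's test of the difference, against 7.07% of all genes tested. Some of these genes were named because of this test or after their values were seen, so their count is partly set by the choice. On the log2 scale, AMPK KO minus WT, the difference was positive for Slc7a3 (3.74), Ddit4 (1.44), Pik3r3 (0.87), Sesn2 (0.84), Fnip1 (0.49), Deptor (0.52), Pdcd4 (0.50), Aars (0.47), Slc2a1 (0.40), Ccnb1 (0.33), Aurka (0.32) and Pik3r1 (0.28). It was also positive for the ER genes Sdf2l1 (0.67), Hspa5 (0.64), Calr (0.55), Dnajb9 (0.53) and Hsp90b1 (0.47). It was negative for Ccl2 (-1.60), Chac1 (-1.19), Klf4 (-1.16), Rragd (-1.13), Castor1 (-0.63), Tfeb (-0.52), Foxo3 (-0.33), Pole (-0.32) and Mrps2 (-0.29). Genotype and passage range cannot be told apart in these differences.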

How the results depend on the processing

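In WT, the count of genes called higher stayed between 3959 and 4375 and that of genes called lower between 2995 and 3461 when 1 library was left out, and the count of genes whose response differed between the genotypes between 859 and 1328. A required fold of 1.5 gave 2536 higher, 1319 lower and 305 that differed, and a test against a fold of 1.2 gave 101 that differed. Without both passage 12 libraries, 4024 were higher and 3356 lower. Deviations of same-numbered libraries from the group means correlated at r = -0.03 to 0.25, and 2 of 4 pairs were over 0.1. These pairs, replicates 2 and 4, also share a passage, 13 and 12, so number and passage cannot be told apart in them. With the replicate block, 4188 genes were higher, 3339 lower and 1086 differed. Libraries of the same passage correlated at r = -0.00 to 0.25, and the 2 of 4 pairs over 0.1 were the same pairs. Passage as a block gave 4382 higher, 3463 lower and 1861 that differed. The share of differences that were higher in AMPK KO was 48.5% with DESeq2's size factors in edgeR, 36.0% with at least 10 counts in every library and between 26.8% and 64.2% when 1 library was left out. In WT, 65.8% of calls were higher at a required fold of 1.5. The sign of the log2 fold change varied in 3 genes that were not called. Tfeb was at -0.0515 after removal of the GC and length trend and between -0.00592 and 0.122 when 1 library was left out. Rps6 was at -0.0149 without a filter on low counts, at -0.00834 in the fit of the compared libraries alone and between -0.0107 and 0.0557 when 1 library was left out. Ppp1r15a was at 0.0671 with scaling by total count alone, at 0.0307 without the passage 12 libraries and between -0.108 and 0.0481 when 1 library was left out. The cause was not tested. Of 3998 values of named genes in WT under the alternatives, 9 changed sign, 49 lost and 36 gained a call, and of 805 values of differences 153 lost a call. Counts of members in lists moved by over 1.5 times in 536 of 3348 values. Low counts limit genes such as Slc7a11 in torin1.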

Other observations

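Of 18 genes of the circadian clock tested in WT, 7 were called lower with torin1 (38.9%, against 21.1% of all genes tested) and 5 (Per3, Nr1d2, Rora, Dbp and Bhlhe41) higher (27.8%, against 26.6%), with a median log2 fold change of -0.19 against 0.04 for all genes tested, and in AMPK KO 9 were called lower and 4 higher, against 17.6% and 25.9% of all genes tested. Arntl, the core activator BMAL1, fell from 24.5, 26.4, 22.7 and 24.4 CPM to 7.32, 11.7, 8.98 and 10.1 CPM, without overlap (log2 fold change -1.37, SE 0.15, adjusted p = 2.2e-08 from edgeR). Ciart, a repressor of the clock, had the lowest value of the list at -2.90 (SE 0.27) and fell from 6.98 ± 2.03 to 0.929 ± 0.223 CPM (SD, n = 4 each). Clock and Per2, further core clock genes, fell by 0.87 and 1.18 on the log2 scale, and Cry1, a repressor, fell from 32.3 ± 4.96 to 14.5 ± 1.67 CPM. Per3 rose from 5.91 ± 0.425 to 11.2 ± 0.389 CPM. Rora, an activator of Arntl, stood at 1.68 ± 0.621 CPM in DMSO and 4.81 ± 0.477 CPM in torin1, and Bhlhe41, a repressor, at 1.07 ± 0.298 and 3.18 ± 1.11 CPM, both called higher. Nr1d1, a repressor of Arntl, had overlapping groups and was not called (log2 fold change -0.29, adjusted p = 0.05 from edgeR).

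Of 22 chemokine, cytokine and growth factor genes tested, 10 were called higher in WT (45.5%, against 26.6% of all genes tested). There were 3 called lower, among them Tgfb2 and Vegfa (13.6%, against 21.1%), and the median log2 fold change was 0.43. The median level of the list was 9.98 CPM, and of all genes tested at 8.48 to 30.9 CPM 32.6% were called higher. In AMPK KO 4 were called higher (18.2%, against 25.9%) and 3 lower (13.6%, against 17.6%), with a median of -0.08. Ccl2, which attracts monocytes, stood at 3.48, 7.06, 4.84 and 5.19 CPM in DMSO and at 9.31, 17.3, 12.1 and 11.3 CPM in torin1 in WT, without overlap, and its log2 fold change was 1.29 (SE 0.22) in WT and -0.32 in AMPK KO. The difference was -1.60 (SE 0.3, adjusted p = 0.0014 from edgeR). Cxcl10 also differed between the genotypes. Ccl7, a relative of Ccl2, rose from 0.727 ± 0.383 to 2.41 ± 0.998 CPM in WT and did not pass the test of the difference (-1.51, SE 0.56, adjusted p = 0.088 from edgeR).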
